A study of Mus musculus with 2 samples.

Results

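The miR-130/miR-301 family was followed here in the heart of old mice through its 4 genes Mir130a, Mir130b, Mir301 and Mir301b, out of 2202 miRNA genes counted. They were chosen by name as mouse genes of the family, whose miRNAs carry the miR-130 seed, with earlier results of these data known. The heart tissue came from male adult mice of the strain B6CASTF1/J, a first-generation cross between C57BL/6J and CAST/EiJ, at an age of 18 to 20 months. MicroRNA sequencing, which counts reads of the smallest RNAs, was run on 2 libraries from total RNA, and the labels call them biological replicates 1 and 2. Both libraries belong to 1 group with no treatment, mutation or control, so the comparisons lie between members, between the libraries, and between the members and other miRNA genes. The labels give each library its own biosample but name 1 donor record for both, so the spread between them may be technical.

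A microRNA (miRNA) is cut from a hairpin-shaped precursor and guides repression of messenger RNAs that pair with its seed, the bases near its 5′ end. Genes that share a seed form a family, because their miRNAs can pair with the same sites. The miR-130/miR-301 family is known from the vessels of the lung, where in work on human cells and rodents it represses Pparg, a nuclear receptor that restrains growth of the vessel wall. In the mouse heart, excess miR-130a is known to lower connexin 43, the channel protein that couples cardiomyocytes.

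The mature miRNAs are shown first because their shared 5′ ends define the family and their differing 3′ ends let reads be told apart. Sequences are RefSeq's on GRCm38.p6, written 5′ to 3′ with the seed, bases 2 to 8, in capitals. The 3p arms carry the family seed. Mir301b gives mmu-miR-301b-3p, and those of the other members were:
mmu-miR-130a-3p: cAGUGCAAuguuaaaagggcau
mmu-miR-130b-3p: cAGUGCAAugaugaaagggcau
mmu-miR-301a-3p: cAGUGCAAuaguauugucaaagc
The arms from the other side of the hairpins were:
mmu-miR-130a-5p: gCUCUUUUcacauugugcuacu
mmu-miR-130b-5p: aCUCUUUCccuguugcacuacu
mmu-miR-301a-5p: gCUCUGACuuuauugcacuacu
mmu-miR-301b-5p: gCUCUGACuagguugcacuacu

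The 3p miRNAs of Mir130a, Mir130b and Mir301 share their first 9 bases. mmu-miR-130a-3p and mmu-miR-130b-3p differ by 2 substitutions, U11A and A13G, counted from 1 at the 5′ end with the base of miR-130a first. Between mmu-miR-130a-3p and mmu-miR-301a-3p, 10 of the aligned bases differ without gaps, all after the shared start. On the 5p side, Mir301 and Mir301b have the seed CUCUGAC in common, while Mir130a and Mir130b each have a seed of their own.

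The hairpins are given for the members with counts to compare, since the deposited counts are per hairpin and do not tell the 5p from the 3p arm. RefSeq's GRCm38.p6 sequences have both mature arms in capitals:
Mir130a: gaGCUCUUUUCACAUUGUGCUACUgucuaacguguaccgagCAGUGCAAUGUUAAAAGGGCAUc
Mir130b: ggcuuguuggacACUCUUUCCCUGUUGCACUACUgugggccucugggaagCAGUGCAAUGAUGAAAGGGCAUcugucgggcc
Mir301: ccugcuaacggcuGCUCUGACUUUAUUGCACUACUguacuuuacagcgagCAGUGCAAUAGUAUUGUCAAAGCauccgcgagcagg
The longest stretch that a member's hairpin shares with any of the other hairpins is 17 bases, between Mir130a and Mir6389. For Mir301 and Mir301b it is 16 bases, which they share with each other. No member shares a stretch of 22 bases with another counted hairpin.

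The 4 genes lie at 3 places of the mouse genome (GRCm38, GENCODE M21). Mir130a (ENSMUSG00000065484.1) spans chr2:84741115-84741178 on the minus strand and lies in no annotated host gene. Its nearest genes are Gm19426 on the same strand, 990 bases away, and Ypel4 on the opposite strand, 2459 bases away. Mir130b (ENSMUSG00000065572.1, chr16:17124061-17124142) and Mir301b (ENSMUSG00000076288.1, chr16:17124400-17124496) are neighbours on the minus strand with 257 bases between them. Both sit in 1 intron of the protein-coding gene 2610318N02Rik, which is read from the same strand, and overlap none of its exons. Mir301 (ENSMUSG00000065589.1, chr11:87113004-87113089, plus strand), the gene of miR-301a, lies in an intron of Ska2 on the same strand. Ska2 encodes a subunit of the complex that holds kinetochores to spindle microtubules.

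Replicate 1 held 3037063 reads in miRNA genes and replicate 2 held 5284446, which were 32.1% and 27.0% of their reads. Levels are given as counts per 1000000 miRNA reads (CPM), with 95% Wilson intervals. Reads mapped to several places, 40.7% and 32.5% of reads in replicates 1 and 2, were counted for no gene. Levels, shares and ranks leave them out. A read stands for 1 small RNA whatever the length of the hairpin, so levels of the members need no correction for length. Whether different miRNAs are read equally well was not tested. A count of 0 allows up to 3 reads, equal to 0.988 CPM in replicate 1 against 0.568 CPM in replicate 2. No molecular identifiers are recorded, so all intervals cover counting error only. The tissue label was checked against miRNAs of cardiomyocytes (Mir1a, Mir133a, Mir208 and Mir499 genes). Of these, 7 of 7 had reads, with summed levels of 10834.5 and 14802 CPM in replicates 1 and 2. Most of each sum came from Mir208a, at 5184 and 9154 CPM, and Mir499, at 5559 and 5487 CPM. The Mir1a and Mir133a genes added little, each at 2.63 to 27.7 CPM. Reads that map to more than 1 of these genes were counted for none, and the sums leave them out. The low levels therefore do not show that miR-1 or miR-133a was scarce. How many of their reads were lost this way was not tested.

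Mir130a held nearly all reads of the family in both libraries. It had 8556 reads in replicate 1 and 9041 in replicate 2. Its level was 2817 CPM (2758 to 2877) in replicate 1 and 1711 CPM (1676 to 1746) in replicate 2, and the mean was 2264 ± 782 CPM (SD, n = 2). Replicate 1 was the higher library and the intervals did not overlap. Mir130a ranked 37 among the 2202 genes in replicate 1 and 54 in replicate 2.

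Mir130b was of intermediate level and was the tested member closest between the libraries. It had 217 reads in replicate 1 and 421 in replicate 2. These were 71.5 CPM (62.6 to 81.6) in replicate 1 and 79.7 CPM (72.4 to 87.6) in replicate 2, with overlapping intervals and a mean of 75.6 ± 5.81 CPM (SD, n = 2). Its neighbour Mir301b had 2 reads in each library, a level of 0.659 CPM in replicate 1 against 0.378 CPM in replicate 2. The intervals were 0.181 to 2.40 CPM in replicate 1 and 0.104 to 1.38 CPM in replicate 2. Both counts lie under the 3 reads that a count of 0 allows, so the level of Mir301b was near the limit of this depth. These counts do not show that it was absent.

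Mir301 stood far apart between the libraries. It had 422 reads in replicate 1 and 36 in replicate 2, the library that was 1.74 times as deep. Its level was 139 CPM (126 to 153) in replicate 1 and 6.81 CPM (4.92 to 9.43) in replicate 2. The mean of 72.9 CPM has an SD of 93.4 CPM (n = 2), which is larger than the mean. By rank, Mir301 was 128 in replicate 1 and 281 in replicate 2.

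**Figure D1:**
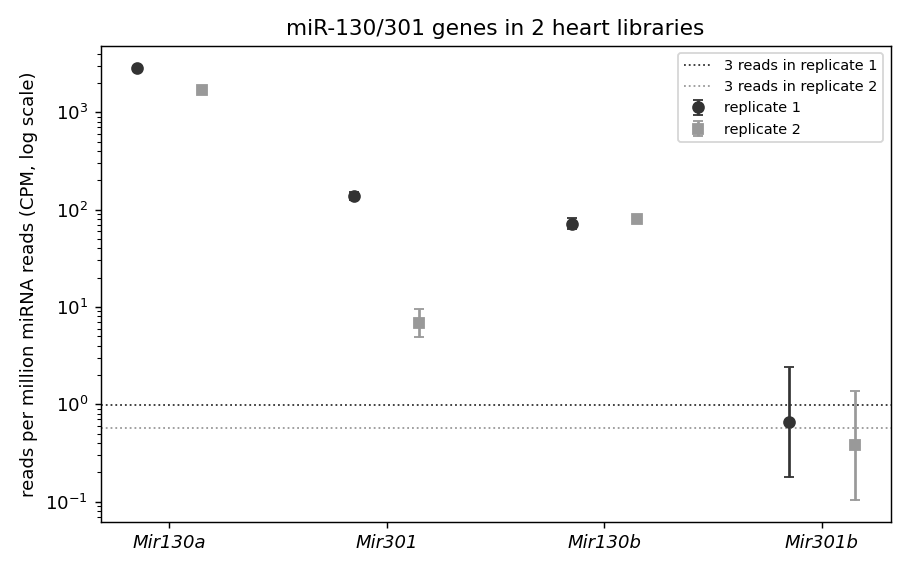
Level of each miR-130/miR-301 gene in CPM (log axis) in replicate 1 (dark circles) and replicate 2 (grey squares), with 95% Wilson intervals; dotted lines mark 3 reads in each library. Mir130a was highest in both, Mir301 was at 139 and 6.81 CPM, and Mir301b lay under the dotted lines.

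By mean level the order was Mir130a, Mir130b, Mir301 and Mir301b. Mir130b and Mir301 did not differ beyond their spread: the mean log2 ratio of Mir301 over Mir130b was -1.29 with an SD of 3.19 over the 2 libraries. The order of this pair was not the same in both libraries. In replicate 1, Mir301 had 1.94 times the reads of Mir130b (exact 95% interval 1.65 to 2.30). In replicate 2, Mir130b had 11.7 times the reads of Mir301 (8.31 to 16.9).

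As a whole the family took 9197 reads in replicate 1 and 9500 in replicate 2. This was 0.303% (0.297 to 0.309) of miRNA reads in replicate 1 and 0.180% (0.176 to 0.183) in replicate 2, with a mean of 0.241 ± 0.0870% (SD, n = 2). Mir130a made up 93.0% of the family in replicate 1 and 95.2% in replicate 2. Mir130b made up 2.36% in replicate 1 and 4.43% in replicate 2, while Mir301 made up 4.59% in replicate 1 and 0.379% in replicate 2. The larger share of the minor members thus passed between them: Mir301 came second in replicate 1 and Mir130b came second in replicate 2. Of the difference in the family's level, 1231 CPM, Mir130a accounted for 89.9% and Mir301 for 10.7%, and Mir130b had the opposite sign.

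Ratios between members use no library total and so do not depend on how the libraries are scaled. 6 pairs of members were compared, with exact intervals and no p. Mir130a had 20.3 times the reads of Mir301 in replicate 1 (18.4 to 22.4) and 251 times in replicate 2 (181 to 359). That ratio was 12.4 times smaller in replicate 1 (8.79 to 18.0). Mir130a had 39.4 times the reads of Mir130b in replicate 1 (34.5 to 45.3) and 21.5 times in replicate 2 (19.5 to 23.7), a ratio of 1.84 between the libraries (1.55 to 2.18). Mir301 over Mir130b moved most among the 3 pairs that leave Mir301b out, by 22.7 times between the libraries (15.4 to 34.1). All 3 intervals exclude 1, so these members moved apart by more than counting error.

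Within the intron on chromosome 16, Mir130b exceeded Mir301b in both libraries. The ratio of Mir130b over Mir301b was 108.5 in replicate 1 (29.7 to 902) and 210.5 in replicate 2 (57.9 to 1744). Its change between the libraries, 0.516 (0.0372 to 7.16), was not detectable at this depth. Across loci, the ratio of Mir301 over Mir301b had an interval of 58.1 to 1748 in replicate 1 and of 4.63 to 154 in replicate 2. The lone reads of Mir301b leave all ratios over it wide, and their intervals run over more than a 10-fold range.

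**Figure D2:**
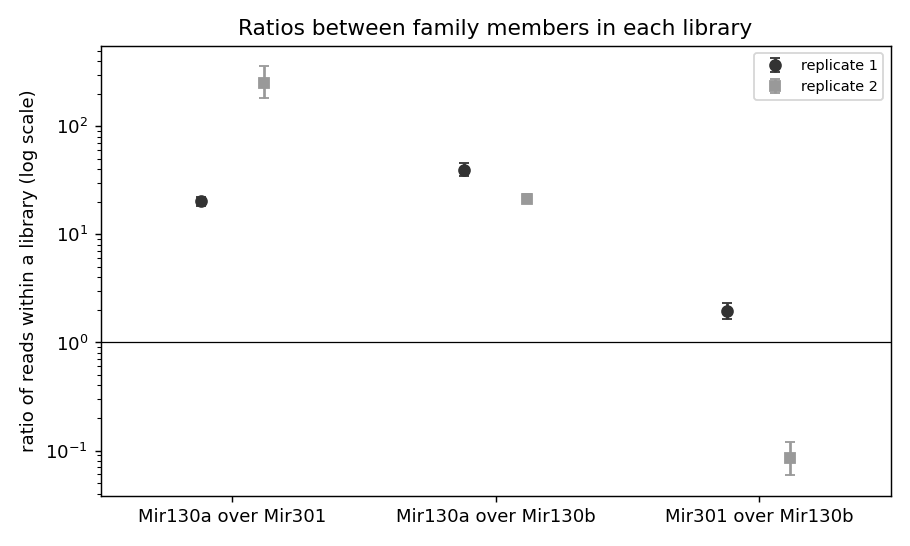
Ratio of reads between members within each library (log axis), with exact 95% intervals, for replicate 1 (dark circles) and replicate 2 (grey squares). Both ratios that hold Mir301 differ widely between the libraries, 20.3 against 251 and 1.94 against 0.0855, while Mir130a over Mir130b was 39.4 against 21.5.

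The libraries were then set against each other for every miRNA gene. The question was whether a gene's share of miRNA reads differed by more than counting error, by an exact two-sided binomial test given the library totals, with Benjamini-Hochberg adjustment over the 424 genes whose reads in both libraries sum to at least 10 and a threshold of 0.05. The test compares these libraries and no condition. Ratios are of CPM, replicate 1 over replicate 2. Of the 3 members tested, 2 were called and both were higher in replicate 1, beside 52.8% of all tested genes called and 21.9% called higher in replicate 1. With so many genes called, a call alone says little of a member. The calls over all genes were 93 higher and 131 lower in replicate 1. Scaling without the 10 most abundant genes gave 127 higher and 93 lower, and scaling by all reads of each library gave 145 higher and 81 lower.

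Mir301 was 20.4-fold higher in replicate 1 (14.5 to 29.5), a log2 ratio of 4.35 (3.86 to 4.88; exact binomial test, adjusted p = 7.23e-138). Mir130a was 1.65-fold higher in replicate 1 (1.60 to 1.70), a log2 ratio of 0.72 (0.68 to 0.76; exact binomial test, adjusted p = 3.22e-235). Mir130b had a ratio of 0.897 (0.758 to 1.06) and did not pass (exact binomial test, adjusted p = 0.295). Its log2 ratio of -0.16 became 0.03 and 0.09 under the scalings just named, so no direction can be given for it. Mir301b had too few reads for the test, and its ratio of 1.74 has an interval of 0.126 to 24.0.

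A test that allows for the spread of the usual gene made fewer calls. The exact test of edgeR, given the common dispersion of this pair, called 12 of the 424 genes, or 2.83%, and 31 had an unadjusted p under 0.05. Of the 3 members tested it called 1. Mir301 passed with a log2 ratio of 4.36 (adjusted p = 0.00099) and was higher in replicate 1, as was 1 other called gene, Mir144. Mir130a, with a log2 ratio of 0.73, did not pass (adjusted p = 1), nor did Mir130b. The dispersion was estimated from these same 2 libraries, so the test singles out genes whose ratio is large beside that of most genes here.

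The members' place among all genes was as follows. The median size of a log2 ratio was 0.50 over the 424 tested genes and 0.36 over the 245 genes whose reads in both libraries sum to at least 100. Among these 245, 90% of log2 ratios ran between -1.61 and 0.99. Mir301 lay outside that range, and Mir130a and Mir130b lay within it. No tested gene had a higher ratio than Mir301, and 4 of the 245 had a ratio of larger size, all higher in replicate 2. Mir130a had 17 of the 245 above it. Among the 245, the next genes under Mir301 were Mir144, with a log2 ratio of 3.06, and Mir451a, with 2.37.

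**Figure D3:**
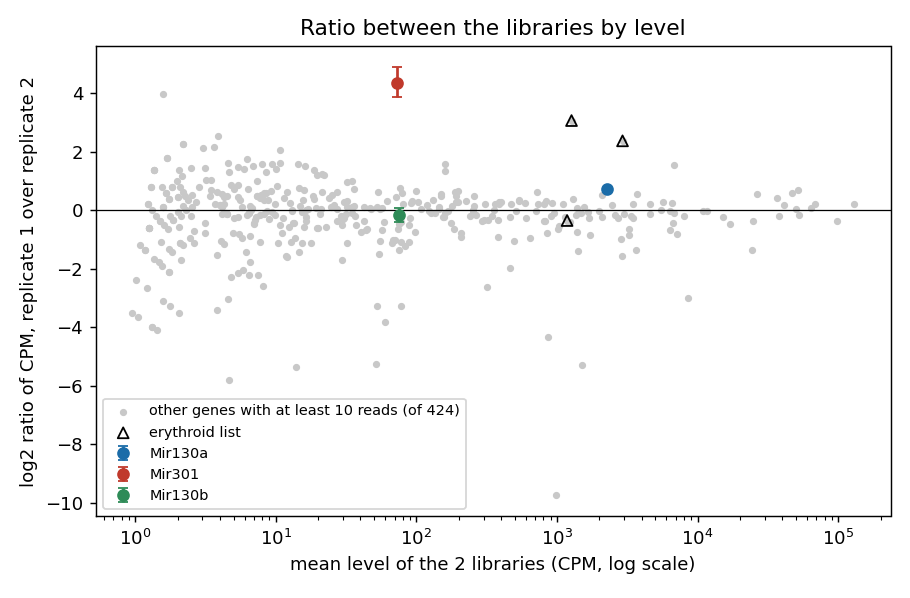
Log2 ratio of CPM, replicate 1 over replicate 2, against the mean CPM of both libraries (log axis) for the 424 tested genes; bars on Mir130a, Mir301 and Mir130b are exact 95% intervals and open triangles are the erythroid list. Mir301 had the highest ratio (4.35), while Mir130a (0.72) and Mir130b (-0.16) lay among genes of like level.

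Mir144 and Mir451a are miRNAs of red blood cells, and other lists of marker miRNAs also moved between the libraries. Erythroid markers (3 genes) summed to 8201 CPM in replicate 1 and 2542 CPM in replicate 2, with Mir144 and Mir451a called higher and Mir486, which has a miRNA gene annotated opposite it, called lower in replicate 1. Fibroblast markers (5 genes) summed to 3851 CPM in replicate 1 and 19013 CPM in replicate 2. Mir21a held most of that difference, Mir214 was also called lower in replicate 1, and Mir199b was called higher. Epithelial markers (7 genes) summed to 298 CPM in replicate 1 and 3874 CPM in replicate 2. That sum rests on Mir205, at 2.30 and 1963 CPM in replicates 1 and 2, and Mir200c, at 82.6 and 1652 CPM. In the epithelial list 4 genes were called lower in replicate 1, while Mir200b and Mir429 were called higher, with a median log2 ratio of -0.43. Leukocyte markers (5 genes) were at 8092 and 9088 CPM in replicates 1 and 2, with 4 called lower and 1 higher in replicate 1. The 4 called lower had log2 ratios between -0.27 and -0.13. Scaling by all reads of each library adds 0.25 to log2 ratios, so no direction can be given for these 4. Endothelial markers (3 genes) were at 86800 and 114721 CPM, mostly from Mir126a. All 3 were called lower in replicate 1, with a median log2 ratio of -1.57. Smooth muscle markers (2 genes) were at 45693 and 40641 CPM, with 1 called higher. Of the 7 cardiomyocyte genes, Mir208a and Mir208b were called lower in replicate 1 and 5 did not pass. Markers of other organs, 6 genes, were at 41.5 and 37.8 CPM, with Mir122 called higher and Mir375 lower in replicate 1. All these calls are from the exact binomial test, which called 52.8% of all tested genes. In the marker lists the exact test of edgeR called only Mir144, Mir21a, Mir200c and Mir205. It called 0 genes of the leukocyte, endothelial, smooth muscle, cardiomyocyte and other organ lists. The part of these cell types in the levels of Mir301 and Mir130a was not tested. In bulk tissue, fewer cells of a type and less RNA per cell cannot be told apart.

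The nearest miRNA genes with reads were looked up after the members' values were seen. Mir301 lies between Mir21a, 529 kb away, and Mir142, 644 kb away. Mir21a, a miRNA known from fibroblasts, had 5768 reads in replicate 1 against 80270 in replicate 2, or 1899 against 15190 CPM. Mir142, a miRNA of leukocytes, had 1277 reads in replicate 1 against 1848 in replicate 2, with a log2 ratio of 0.27. The nearest to Mir130a with reads, Mir1955 and Mir10b, lie 7451 and 10015 kb away, with log2 ratios of -0.42 and -0.96. Those nearest to the intron of Mir130b and Mir301b, Mir1306 and Mir484, lie 1160 and 2964 kb from Mir130b, with log2 ratios of 0.50 and 0.24. No other counted miRNA gene lies within 10 kb of Mir130a or Mir301.

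For each member the 2 genes with the most similar pair of levels were found, by distance on the scale of log2(CPM + 1) in the 2 libraries. For Mir130a they were Mir195a, a member of the miR-15 family with 7489 and 9177 reads in replicates 1 and 2, and Mir328. The distance to Mir195a was 0.193. For Mir130b they were Mir345, with 207 and 429 reads and a distance of 0.0723, and Mir1981. Mir301 had no close neighbour: the nearest genes were Mir337 at 2.26, with 141 and 123 reads, and Mir409 at 2.29. For Mir301b, Mir377 and Mir5125 were equally near at 0.795, with 4 reads in replicate 1 and 6 in replicate 2 each.

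The family was also set beside other genes that share its seed or part of it. Among RefSeq's mature miRNAs, 7 genes have the seed AGUGCAA, and 4 of them are not members. These are Mir130c, Mir721, Mir6341 and Mir6389, and all 4 had 0 reads in both libraries, which allows up to 0.988 CPM in replicate 1 and 0.568 CPM in replicate 2. Thus every read counted for a listed gene with this seed fell on Mir130a, Mir130b or Mir301. Mir301b, with 2 reads in each library, is not among the 7 genes because the sequences used lack its 3p miRNA.

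The miR-148/miR-152 family, known for repressing the DNA methyltransferase Dnmt1, has a seed that reads the same as bases 1 to 7 of the 3p miRNAs above. Its miRNAs are shown to make that offset visible, with the seed in capitals (RefSeq, GRCm38.p6):
mmu-miR-148a-3p: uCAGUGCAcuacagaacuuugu
mmu-miR-148b-3p: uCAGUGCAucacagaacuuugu
mmu-miR-152-3p: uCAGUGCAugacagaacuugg
Mir148a had 697 reads in replicate 1 against 479 in replicate 2, with a log2 ratio of 1.34, and was called higher in replicate 1. Mir148b had 288 and 335 reads in replicates 1 and 2, a log2 ratio of 0.58, and was called too. Mir152 had 764 and 1333 reads, at 252 CPM in both libraries. All 3 lay under the level of Mir130a in both libraries.

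Across seed families, the members' spread was wide because of Mir301. Of 19 families with at least 3 tested genes, some of which share genes, the family of Mir130a, Mir130b and Mir301 had the second widest range of log2 ratios, 4.51. The family of Mir200b, Mir200c and Mir429 had a range of 5.00, and the median over the families was 1.34. The log2 ratios of Mir130a and Mir130b were 0.88 apart, which is under that median. The share held by the leading gene, taken in the library where it was lower, was 93.1% for Mir130a among the tested members. 6 families had a higher such share and the median was 74.5%. These are descriptions with no test. They leave out reads mapped to several places, which were counted for no gene and can be many where genes share a mature sequence.

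**Figure D4:**
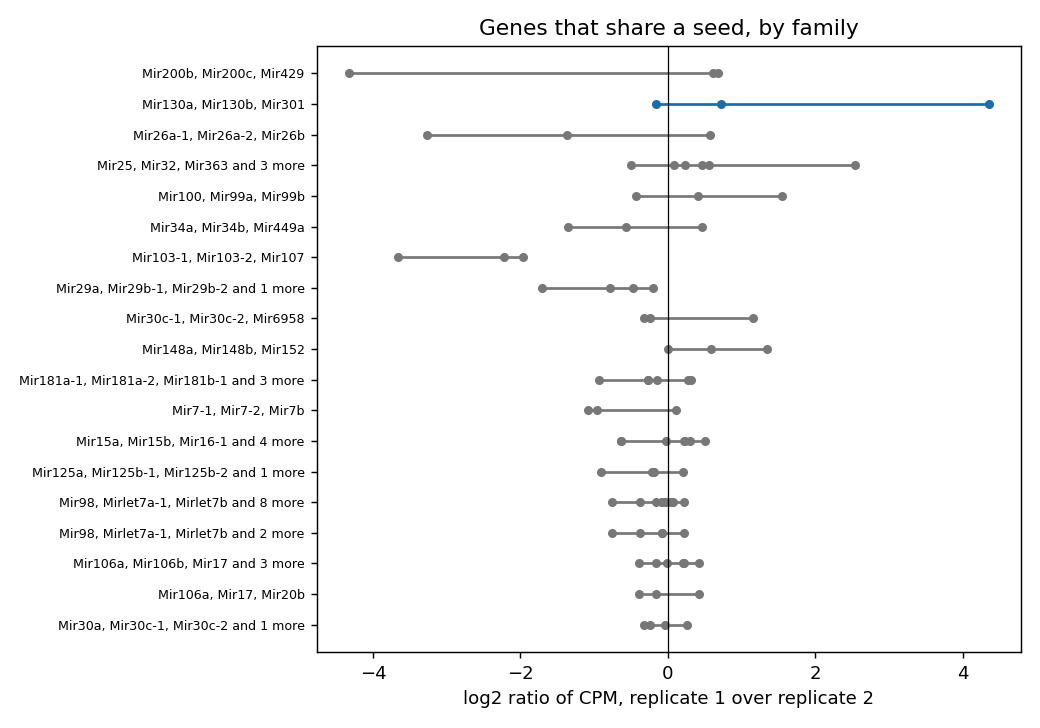
Log2 ratio of CPM, replicate 1 over replicate 2, of each tested gene (points) in 19 families of miRNA genes that share a seed, joined by a line from lowest to highest and ordered by range. The miR-130/miR-301 genes (blue) span -0.16 to 4.35, the second widest range after Mir200b, Mir200c and Mir429.

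In the lung vessel work, the family is placed above further miRNAs: the miR-424/miR-503 cluster, whose mouse gene for miR-424 is Mir322, and miR-204 with its relative miR-211. Of 9 genes in these branches, 5 were called higher in replicate 1, 1 was called lower and 3 did not pass. Over all tested genes, 21.9% were called higher in replicate 1. All of the 9 but Mir204 and Mir211 belong to the miR-424/miR-503 cluster of the X chromosome, so the 9 genes are not separate observations. The 9 genes had a median log2 ratio of 0.22 beside -0.07 over all tested genes. The exact test of edgeR called 0 of these 9, and 0 had an unadjusted p under 0.05. Mir322, the most abundant, was at 3737 CPM in replicate 1 against 3213 CPM in replicate 2, with a log2 ratio of 0.22. Mir503, from the same cluster, was at 46.8 CPM in replicate 1 against 94.8 CPM in replicate 2 and was called lower in replicate 1, with a log2 ratio of -1.02. Mir204 was at 148 CPM in replicate 1 against 116 CPM in replicate 2, with a log2 ratio of 0.35. Mir211 had 37 and 26 reads in replicates 1 and 2, a log2 ratio of 1.31, and the other called genes were Mir351 (0.21) and Mir542 (0.28). The other scalings added 0.01 to 0.25 to every log2 ratio, which turns the sign of none of the called ones. The 3 that did not pass were Mir450-1, Mir450-2 and Mir450b. The ratios that passed, other than those of Mir503 and Mir211, were smaller than the median size of 0.50 over all tested genes.

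The last readout was the strand. Reads on the strand opposite a miRNA gene were counted in a column of their own. Opposite Mir130a there were 7 reads in replicate 1 and 8 in replicate 2. They were 0.0817% (0.0396 to 0.169) of the reads of both strands in replicate 1 and 0.0884% (0.0448 to 0.174) in replicate 2, so the shares overlapped. No miRNA gene is annotated opposite any member. Mir130b, Mir301 and Mir301b had 0 opposite reads in both libraries, but with 422 sense reads or fewer each, a share like that of Mir130a would give under 1 read.

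The background came from genes with at least 1000 sense reads and no miRNA gene opposite. In replicate 1, 79 of 83 such genes had 0 opposite reads and Mir130a had the highest share. In replicate 2, 93 of 102 had 0, and Mir324 alone had a higher share, 0.0956%, from 5 reads. Over these genes together, without Mir130a, the opposite share was 0.000408% in replicate 1 (9 reads) and 0.000724% in replicate 2 (28 reads). Mir130a and Mirlet7b were the genes above 3 opposite reads in both libraries. Mirlet7b had 6 in replicate 1 and 13 in replicate 2, but at shares of 0.00269% and 0.00389%.

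**Figure D5:**
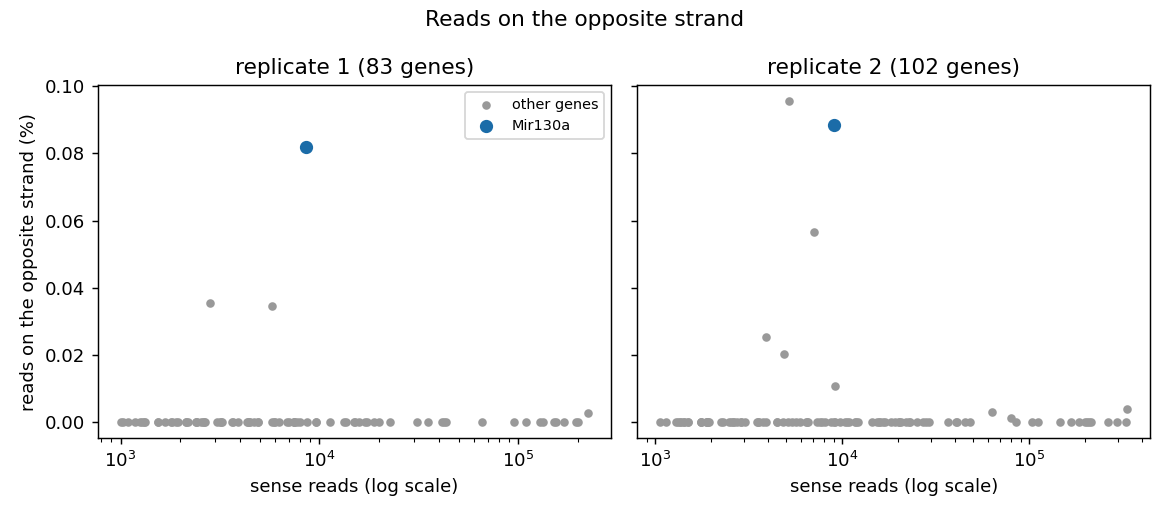
Share of reads on the opposite strand (%) against sense reads (log axis) for genes with at least 1000 sense reads and no miRNA gene annotated opposite, in replicate 1 (left) and replicate 2 (right). Mir130a (blue) was highest in replicate 1 at 0.0817% and second in replicate 2 at 0.0884%, while most genes were at 0.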

How the data were processed

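The authors deposited raw counts of reads for each miRNA gene, with a table for each library, on mm10 with GENCODE M21, per the labels and the submitters' processing notes. No source used here gives the aligner or the counter. The tables have 2202 genes, all matched to GENCODE names, 3 count columns (either strand and each strand alone) and 4 summary lines, which stayed out of all totals. Of the single-strand columns, the one taken as sense had the larger total in both libraries. Unmapped reads were 19.4% and 34.3% of reads in replicates 1 and 2, and reads mapped to several places, counted for no gene, 40.7% and 32.5%. Reads that carry CAST/EiJ variants could be lost.

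From the counts, CPM, Wilson and Clopper-Pearson 95% intervals, exact binomial tests and exact odds ratios were computed (Python 3.11.15, scipy 1.17.1). A quasi-likelihood fit has no residual degrees of freedom with 1 library against 1. The exact test of edgeR 4.0.16 used the common dispersion over 321 genes that had at least 10 reads in each library, and DESeq2 1.42.0 gave size factors only. The tests were checked on simulated data; with dispersion added, the binomial test also called many unchanged genes and the exact test of edgeR missed most changed ones. Alternatives were other scalings, the either-strand column, read minimums of 1 and 50, and leaving out each library. Named genes were the members, genes with their seed, the 2 nearest in level, miRNA genes within 10 kb and the listed branches. The members and lists were chosen with earlier results of these data known. Depth was 3037063 and 5284446 miRNA reads in replicates 1 and 2.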

Additional observations from a re-analysis of the deposited data

Results flagged for a closer look

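Reads on the strand opposite Mir130a were set aside because they lie outside the sense counts and exceed the 3 reads that a count of 0 allows. There were 7 in replicate 1 and 8 in replicate 2. Their source was not tested.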

How the results depend on the processing

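The calls for Mir301 and Mir130a held under every scaling, read minimum and strand column tried, with log2 ratios of 4.35 to 4.599 for Mir301 and 0.72 to 0.97 for Mir130a. The exact test of edgeR, which allows for spread between libraries, called 12 genes in place of 224; it kept Mir301, and Mir130a at 0.73 was not called (adjusted p = 1). For Mir130b the log2 ratio changed sign, to 0.031 when scaled without the 10 most abundant genes and 0.092 when scaled by all reads, and it was never called. These scalings shifted all log2 ratios by 0.19 and 0.25. On the either-strand column the mean levels were 3055 CPM for Mir130a and 102 CPM for Mir130b. Their own reads hardly changed on that column. Mir130a had 8563 and 9049 reads in replicates 1 and 2, and Mir130b had 217 and 421 as before. The higher levels thus come from the smaller total of that column. With the 10 most abundant genes left out of the total, Mir130a was at 6434, Mir130b at 210.6, Mir301 at 216 and Mir301b at 1.48 CPM, and the family at 0.686% of reads. With 1 library left out, each level was that of the other library. Leaving replicate 1 or 2 out put Mir301 at 6.81 or 139 CPM. Mir301b had no value with edgeR or with at least 50 reads, and its depth limits every ratio over it. No paired analysis was possible because there is 1 group.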
